A study of Mus musculus with 8 samples.

Results

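The genes of antigen presentation by the major histocompatibility complex (MHC) and of the immunoproteasome were followed in mouse regulatory T cells (Tregs) cultured with or without oxPAPC. The set took every protein-coding row of the deposited table whose gene name starts with H2-, the mouse MHC prefix, and 14 further genes given by name, B2m, Tap1, Tap2, Tapbp, Tapbpl, Erap1, Nlrc5, Ciita, Cd74, Psmb8, Psmb9, Psmb10, Psme1 and Psme2. It held 33 of the 19330 genes in the table, 19 of them with an H2- name, and all 14 further genes were present. By role there were 11 class I genes (10 heavy chains and B2m), 10 class II genes (9 chains or chaperone subunits and Cd74), 2 transactivators, 5 genes of peptide loading and trimming and 5 of the immunoproteasome and its activator. Another 5 H2- rows, not annotated as protein-coding, were outside the rule.

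The cells were Tregs derived in vitro from naive CD4+ T cells, with the spleen of B6 mice given as the source, and were polarized for 3 days. The control group had no oxPAPC, a mixture of oxidized phospholipids, and the oxPAPC group was polarized in its presence, with no dose given in the labels. Each group had 4 libraries, called replicates 1 to 4 here, with 14017583 to 21619731 counts per library. Nothing in the labels ties a replicate to a mouse or a culture of its own, and p-values therefore measure only the spread between these libraries, which may be technical. Levels are given as CPM, read counts scaled to library depth with TMM factors, and a gene is called higher or lower where edgeR's quasi-likelihood test gave a Benjamini-Hochberg adjusted p under 0.05 over the 16434 genes tested. All 33 genes passed the filter on low counts. Of the 8 genes fixed as CD4 T cell and Treg markers, all 8 were tested and none was called. Cd3e, Cd4 and Foxp3 had 136, 469 and 154 CPM as control means and 112, 363 and 145 CPM as oxPAPC means. Il2ra alone of the 8 had a positive log2 fold change, 0.60 (edgeR adjusted p = 0.0902). Its mean level went from 541 to 821 CPM, control first, and its groups overlapped.

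Class I molecules present peptides from the cytosol to CD8 T cells, and nearly all nucleated cells carry them. A heavy chain pairs with B2m, and the peptides are cut by the proteasome, carried into the endoplasmic reticulum by the transporter TAP, trimmed there and loaded with the help of tapasin. Class II molecules present peptides from endosomes to CD4 T cells and are made mainly by B cells, dendritic cells and macrophages, while mouse T cells make little of them. Interferon gamma induces both routes. It acts through NLRC5, a transactivator of class I genes, and CIITA, a transactivator of class II genes, and it replaces catalytic subunits of the proteasome by the immunoproteasome subunits.

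The transactivator genes and several genes of the class I route were higher in the oxPAPC libraries, whereas the class II genes divided, with H2-Aa called higher and H2-Eb2 and H2-Oa called lower. Of the 33 genes, 9 were called higher and 3 lower, and 21 were not called. Over all 16434 genes tested, 6.75% were called higher and 6.52% lower, 13.3% in all. Of these calls 50.9% were higher with TMM scaling and 71.6% with scaling by library size, under which the overall median was 0.12 in place of -0.01 (log2). With TMM scaling the median log2 fold change of the 33 genes was 0.42, against -0.01 over all genes tested, and 25 of the 33 values were positive. In a bulk library, fewer cells of a type and less RNA per cell cannot be told apart. The groups did not overlap for 12 genes with higher and 4 with lower values in oxPAPC libraries, where 9.5% and 9.86% of all genes tested had such a separation. The plot of log2 fold changes by role shows the class I, loading and proteasome genes mostly to the right of 0 and the class II genes on both sides.

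**Figure D1:**
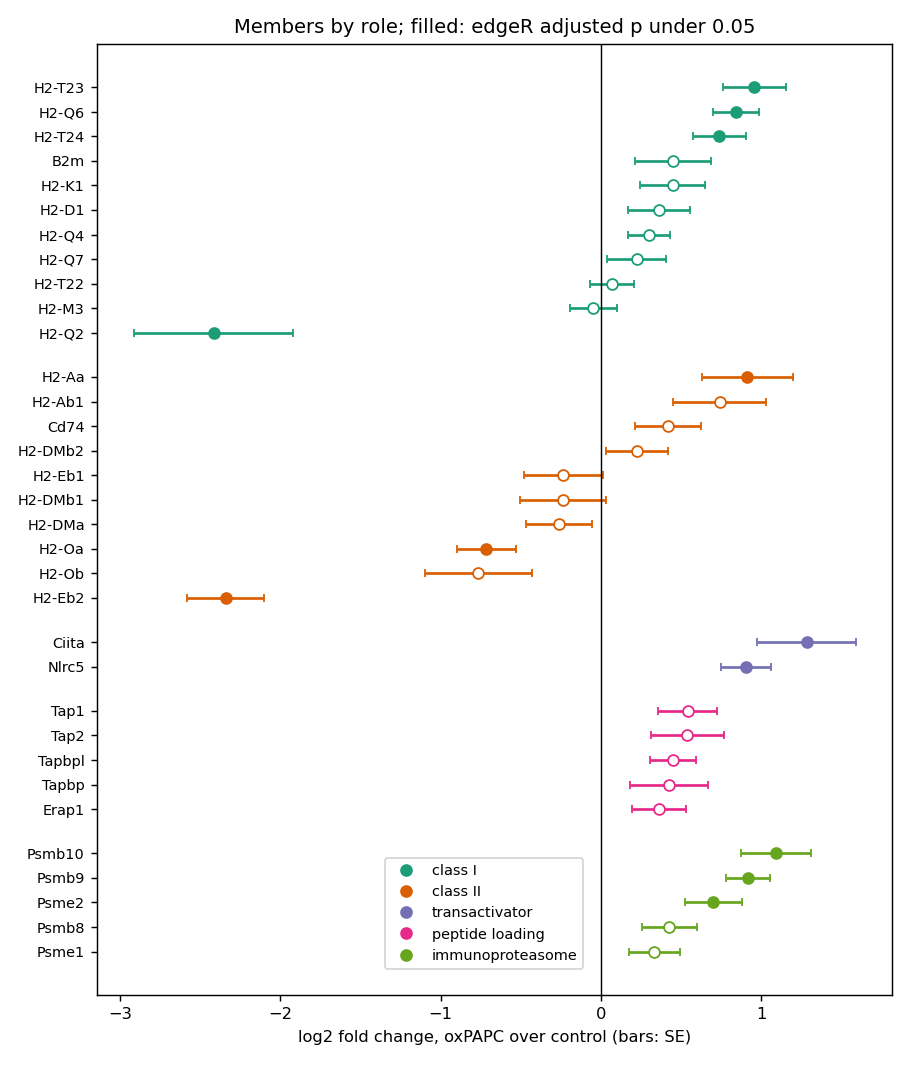
Log2 fold change of oxPAPC over control (x axis) for each of the 33 genes (y axis), grouped and coloured by role, with standard errors as bars and filled points for genes with an edgeR adjusted p under 0.05. Filled points lie right of 0 for 9 genes and left of 0 for H2-Q2, H2-Eb2 and H2-Oa.

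Both transactivator genes rose. Nlrc5, the class I transactivator, lies at chr8:94434356-94527272 of GRCm38. In control replicates 1 to 4 it had 90.4, 84.9, 102 and 118 CPM, and in oxPAPC replicates 1 to 4 it had 152, 193, 202 and 192 CPM. Every oxPAPC library was above every control library. The mean went from 98.6 to 185 CPM, a 1.87-fold difference, a log2 fold change of 0.91 with an SE of 0.16 (adjusted p = 0.00189, edgeR). Ciita, the class II transactivator, was far lower, with 27 to 48 counts in a control library and 53 to 126 in an oxPAPC library. It had 2.06, 2.04, 2.19 and 1.70 CPM in control replicates 1 to 4 and 3.96, 8.33, 4.32 and 2.94 CPM in oxPAPC replicates 1 to 4. The groups did not overlap, and oxPAPC replicate 2 was highest. Its log2 fold change was 1.28 with an SE of 0.31 (adjusted p = 0.0141, edgeR). Per kilobase of exon, Nlrc5 stood at 11.6 CPM and Ciita at 0.210 CPM in control libraries. The log2 ratio of Nlrc5 to Ciita counts within a library was 5.60 ± 0.34 in control and 5.33 ± 0.62 in oxPAPC libraries (SD, n = 4 each), a difference of -0.27 (two-sided exact permutation p = 0.486, 0.81 after Benjamini-Hochberg adjustment over 5 ratios). With 4 against 4 libraries the smallest p this test can give is 0.0286, and 1 ratio alone at that p would not pass after the adjustment.

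Among the class I genes, 3 heavy chains rose, 1 fell and 7 genes including B2m were not called. The genes that rose were H2-T23, H2-Q6 and H2-T24, all nonclassical heavy chains, that is, class I genes other than the polymorphic H2-K and H2-D. H2-T23 encodes Qa-1, which presents a narrow set of peptides and is a ligand of the inhibitory receptor pair CD94 and NKG2A. In control replicates 1 to 4 it had 121, 158, 88.6 and 145 CPM, and in oxPAPC replicates 1 to 4 it had 251, 204, 308 and 229.7 CPM. The lowest oxPAPC library was above the highest control library. H2-T23 rose 1.94-fold, a log2 fold change of 0.96 with an SE of 0.20 (adjusted p = 0.00586, edgeR). H2-Q6, a Qa-2 family gene, had 21.7, 23.2, 16.7 and 19.9 CPM in the control and 36.5, 40.5, 37.2 and 31.8 CPM in the oxPAPC replicates. Again the groups did not overlap. The log2 fold change was 0.84 with an SE of 0.14 (adjusted p = 0.00163, edgeR). H2-T24 had 9.04, 8.45, 11.7 and 8.79 CPM in the control and 13.9, 13.9, 17.4 and 18.1 CPM in the oxPAPC replicates, with no overlap and a log2 fold change of 0.74 with an SE of 0.17 (adjusted p = 0.0101, edgeR). All 3 calls held in every one of the 15 alternative fits.

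The classical heavy chains and B2m had higher means in oxPAPC libraries but were not called. H2-K1 encodes the H-2K heavy chain. In control replicates 1 to 4 it had 599, 760.4, 469 and 705 CPM, and in oxPAPC replicates 1 to 4 it had 825, 738, 1065 and 822 CPM. Only oxPAPC replicate 2, below control replicate 2, made the groups overlap. Its log2 fold change was 0.45 with an SE of 0.20 (adjusted p = 0.169, edgeR). H2-D1 encodes the other classical heavy chain of B6 mice. In control replicates 1 to 4 it had 610.3, 745, 518 and 755 CPM, and in oxPAPC replicates 1 to 4 it had 815, 711, 1039 and 815 CPM. The groups overlapped, and the log2 fold change was 0.36 with an SE of 0.20 (adjusted p = 0.254, edgeR). B2m, the light chain shared by class I molecules, had 241, 197, 363 and 264 CPM in control and 267, 264, 461 and 463 CPM in oxPAPC replicates. Control replicate 3 was above oxPAPC replicates 1 and 2. The log2 fold change was 0.45 with an SE of 0.24 (adjusted p = 0.249, edgeR). Per kilobase of exon, B2m, H2-D1 and H2-K1 were the highest class I genes in control libraries, with 309.8, 255 and 215 CPM, followed by H2-T23 with 44.3 CPM.

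The other class I genes differed less, apart from H2-Q2. H2-Q4 had 36.0, 44.1, 37.1 and 42.0 CPM in control and 45.2, 56.5, 47.7 and 46.4 CPM in oxPAPC replicates. Its groups did not overlap, yet it was not called (log2 fold change 0.30, edgeR adjusted p = 0.16). H2-Q7, which encodes a Qa-2 antigen, had 129, 176, 94.0 and 133 CPM in control and 167, 172, 154 and 128 CPM in oxPAPC replicates, with a log2 fold change of 0.22 (edgeR adjusted p = 0.485). H2-T22, whose product is a ligand of some gamma delta T cell receptors, had 103, 103, 95.3 and 106 CPM in control and 89.9, 104, 118 and 116 CPM in oxPAPC replicates, with a log2 fold change of 0.07 (edgeR adjusted p = 0.798). H2-M3, which presents peptides that start with N-formyl methionine, had 24.1, 25.4, 18.5 and 22.3 CPM in control and 22.3, 25.3, 20.6 and 19.1 CPM in oxPAPC replicates. Its log2 fold change was -0.05 (edgeR adjusted p = 0.873), and it turned to 0.10 with scaling by library size. The groups of H2-Q7, H2-T22 and H2-M3 overlapped. H2-Q2 was near the limit of detection and went the other way. It had 15, 24, 24 and 34 counts in control replicates 1 to 4 and 0, 4, 5 and 9 counts in oxPAPC replicates 1 to 4. H2-Q2 fell by 2.42 on the log2 scale, with an SE of 0.50 (adjusted p = 0.00589, edgeR), from 1.37 to 0.235 CPM, and was called in all 15 alternative fits.

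Class I genes are close paralogs, and reads that match several of them could be dropped or shared in counting. Of the 75-base windows in GENCODE M21 transcripts, 17.9% of those of H2-Q6 also occurred in another gene, 9.8% in H2-Q7. For H2-Q7 the share was 16.95%, for H2-T22 18.5%, with 15.7% in H2-T10, and for H2-Q2 8.07%. The shares were 5.91% for H2-T23, 3.1% for H2-K1, 5.4% for H2-D1, 7.02% for H2-Q4 and 0.459% for H2-T24. H2-M3 and B2m shared none. The values of H2-Q6, H2-Q7 and H2-T22 are therefore less certain. H2-Q5, a row annotated as a polymorphic pseudogene, shared 5.32% of the windows of H2-Q7. It was outside the rule and stood at 7.47 CPM in the control and 15.2 CPM in the oxPAPC group, a log2 fold change of 1.02 with an SE of 0.15 (adjusted p = 0.000725, edgeR). The sources used here do not say whether reads were counted by strand. Antisense genes overlap H2-T23, H2-T24, H2-T22 and H2-Q4 in the annotation, and others overlap H2-DMa, H2-Eb1 and H2-Oa of class II and Psmb8, Psmb10, Tap2 and Tapbp, so reads of both strands cannot be told apart there. Protein-coding genes on the other strand likewise overlap B2m, H2-DMa, Psmb9, Tap1, Psme1, Erap1, Tapbpl and Ciita. A long noncoding RNA gene on the other strand overlaps Nlrc5.

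**Figure D2:**
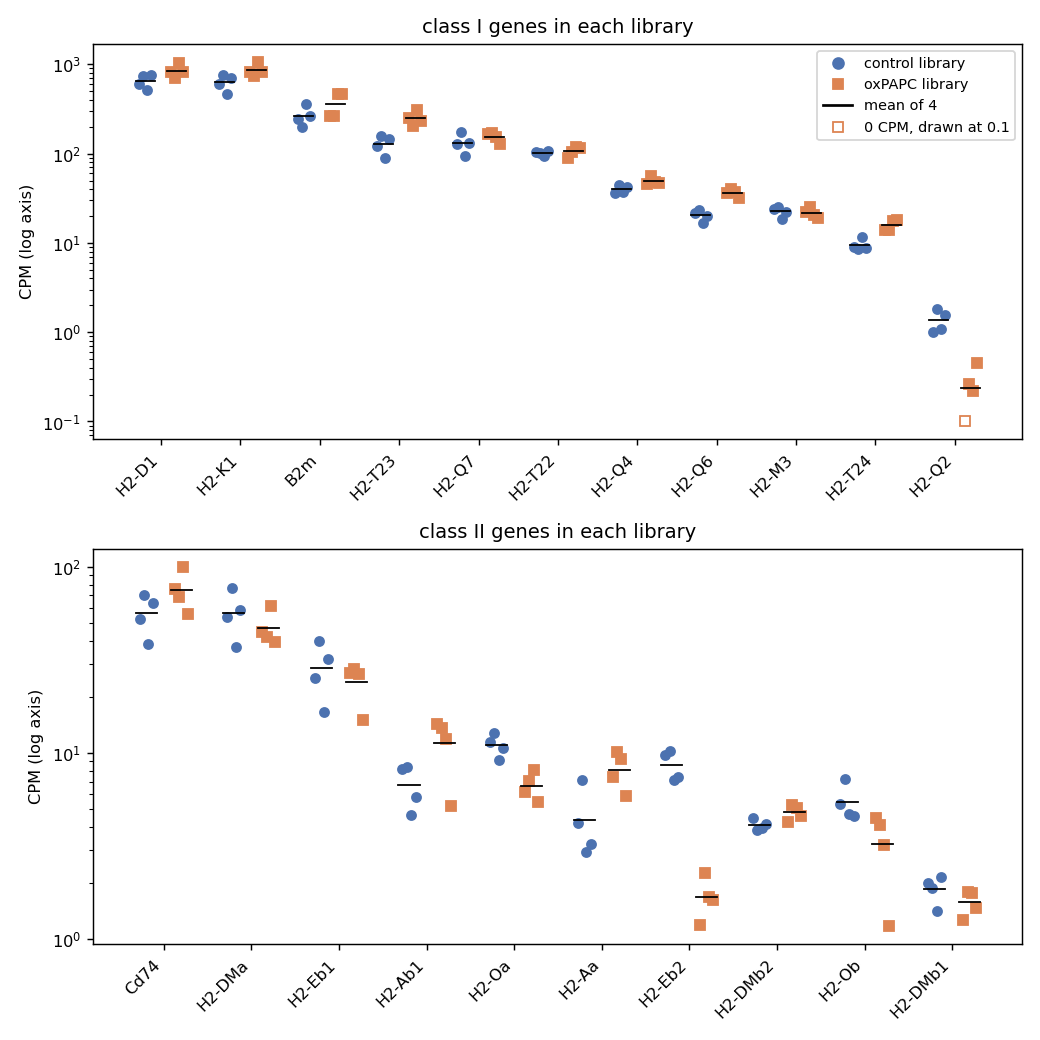
CPM of each class I gene (upper) and each class II gene (lower) in each library on log axes, with circles for the 4 control libraries, squares for the 4 oxPAPC libraries and lines at the means. The control and oxPAPC points of most genes overlap. Those of H2-T23, H2-Q6, H2-T24 and H2-Q4 stand higher and those of H2-Eb2, H2-Oa, H2-Q2 and H2-Ob stand lower in every oxPAPC library. H2-Q4 and H2-Ob were not called.

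Promoter windows were read for the class I genes where several members share known elements. RefSeq windows on GRCm38.p6, from 250 bases before to 50 after a start site, were given for 26 of the 33 genes, 29 windows in all. The elements searched on both strands were the interferon-stimulated response element (ISRE, GAAA, any 2 bases, GAAA), the gamma-activated site (GAS, TTCNNNGAA), the core of the X1 box bound by RFX (CAACNGATG), the kappa B site of enhancer A (GGG, any 2 bases, TTCCC) and the core of the Y box bound by NF-Y (GATTGG), the last chosen after the windows had been read. No motif overlapped another in the windows printed here. H2-T23, which rose, and B2m, which was not called, are shown because each holds an ISRE match and a Y box match, and H2-K1 because it holds the kappa B site. Capitals mark the motif matches, and each window reads 5′ to 3′ on the strand of its gene. The H2-T23 window is chr17:36032652-36032951 on the minus strand, the B2m window chr2:122147437-122147736 on the plus strand and the H2-K1 window chr17:34000284-34000583 on the minus strand.
H2-T23: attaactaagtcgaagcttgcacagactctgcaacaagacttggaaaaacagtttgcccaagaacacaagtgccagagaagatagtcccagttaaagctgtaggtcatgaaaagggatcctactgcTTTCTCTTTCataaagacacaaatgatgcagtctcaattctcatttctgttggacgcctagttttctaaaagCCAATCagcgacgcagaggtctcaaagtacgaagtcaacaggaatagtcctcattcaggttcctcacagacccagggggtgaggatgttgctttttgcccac
B2m: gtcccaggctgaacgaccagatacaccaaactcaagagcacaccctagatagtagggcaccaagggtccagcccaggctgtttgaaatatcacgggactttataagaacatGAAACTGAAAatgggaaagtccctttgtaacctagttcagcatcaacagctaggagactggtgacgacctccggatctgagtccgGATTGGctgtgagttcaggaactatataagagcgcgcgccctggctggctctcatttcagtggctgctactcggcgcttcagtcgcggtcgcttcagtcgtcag
H2-K1: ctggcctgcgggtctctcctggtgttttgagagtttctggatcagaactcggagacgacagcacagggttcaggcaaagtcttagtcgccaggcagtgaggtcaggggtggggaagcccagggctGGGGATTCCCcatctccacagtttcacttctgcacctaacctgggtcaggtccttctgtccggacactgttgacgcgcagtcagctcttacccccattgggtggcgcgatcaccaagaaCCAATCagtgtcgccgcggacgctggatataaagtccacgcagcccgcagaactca

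ISRE letters were found in the windows of 5 of the 26 genes, B2m, Erap1, H2-T22, H2-T23 and Psme1, of which H2-T23 alone was called higher, and in 3.44% of all 32851 windows. The kappa B letters were in 7 genes, H2-D1, H2-K1, H2-Q4, H2-Q6 and H2-Q7 of class I and H2-Aa and H2-Oa of class II, against 1.75% of all windows. GAS letters were in H2-M3, H2-DMb2 and Psmb8, against 8.3% of all windows. The Y box letters were in 18 genes, 8 of 10 class I and 8 of 8 class II genes with a window. By windows they were in 19 of 29, against 16.1% of all windows. These letters were chosen after the windows had been read, so the excess is not independent of that choice. The matches of Psmb9 and Tap1 are the same site, in bases that both windows share. A match describes letters only, and no binding was measured. Only exact letters were searched, so a window without a match, such as that of H2-K1 for the ISRE, may hold a variant of the element.

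Of the 10 class II genes, H2-Aa rose, H2-Eb2 and H2-Oa fell and 7 were not called. The median log2 fold change of the class II genes was -0.24, against 0.36 for the 11 class I genes, and 4 class II and 9 class I values were positive. The 4 positive class II values were those of H2-Aa, H2-Ab1, Cd74 and H2-DMb2. The 6 negative ones were those of H2-Eb1, H2-Eb2, H2-DMa, H2-DMb1, H2-Oa and H2-Ob. The class II median thus mixes antigen-presenting chains with chaperone subunits. The difference between the classes was not tested. H2-Eb2, a second beta chain gene of the I-E type, had the smallest adjusted p of the 33 genes. In control replicates 1 to 4 it had 9.78, 10.2, 7.13 and 7.36 CPM, and in oxPAPC replicates 1 to 4 it had 1.19, 2.25, 1.68 and 1.62 CPM. The highest oxPAPC library was far below the lowest control library. H2-Eb2 fell by 2.34 on the log2 scale, with an SE of 0.24 (adjusted p = 5.12e-05, edgeR), a level 5.06-fold lower, and was called in every alternative fit. H2-Oa encodes the alpha chain of H2-O, which inhibits the peptide exchanger H2-DM. It had 11.4, 12.8, 9.09 and 10.6 CPM in control and 6.12, 7.01, 8.03 and 5.43 CPM in oxPAPC replicates. These groups did not overlap, and H2-Oa fell by 0.72 on the log2 scale with an SE of 0.18 (adjusted p = 0.02, edgeR). The call was lost with library size scaling (adjusted p = 0.102), without control replicate 1 (0.0556) or 2 (0.0698) and without oxPAPC replicate 1 (0.0599) or 4 (0.0688). H2-Ob, the beta chain of H2-O, had 5.32, 7.24, 4.66 and 4.60 CPM in control and 4.48, 4.10, 3.18 and 1.17 CPM in oxPAPC replicates. It had no overlap either, with a log2 fold change of -0.77 ± 0.33, but was not called (edgeR adjusted p = 0.152).

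H2-Aa and H2-Ab1, the alpha and beta chains of I-A, the class II molecule of B6 mice, had higher means in oxPAPC libraries. H2-Aa had 4.19, 7.17, 2.92 and 3.22 CPM in control and 7.39, 10.05, 9.22 and 5.83 CPM in oxPAPC replicates. Control replicate 2 was above oxPAPC replicate 4, so the groups overlapped. The log2 fold change was 0.91 with an SE of 0.28 (adjusted p = 0.0474, edgeR). That call was lost without control replicate 1, 3 or 4 (adjusted p of 0.105, 0.0953 and 0.119) and without oxPAPC replicate 1, 2 or 3 (0.0762, 0.113 and 0.0868). H2-Ab1 had 8.18, 8.38, 4.62 and 5.80 CPM in control and 14.3, 13.6, 11.8 and 5.17 CPM in oxPAPC replicates. With oxPAPC replicate 4 inside the control range, it was not called (log2 fold change 0.74 ± 0.29, edgeR adjusted p = 0.112). It was called without that library (0.0153) and with library size scaling (0.0384).

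The remaining class II genes overlapped between groups. Cd74, the invariant chain that guides class II molecules to endosomes, had 52.5, 70.2, 38.4 and 63.6 CPM in control and 76.2, 69.0, 99.5 and 55.4 CPM in oxPAPC replicates (log2 fold change 0.42, edgeR adjusted p = 0.205). H2-DMa, a chain of H2-DM, had 53.7, 76.8, 36.9 and 58.1 CPM in control and 44.3, 42.0, 61.7 and 39.6 CPM in oxPAPC replicates (log2 fold change -0.26, edgeR adjusted p = 0.455). H2-Eb1, the main I-E beta chain gene, had 25.3, 39.7, 16.6 and 32.1 CPM in control and 26.6, 28.2, 26.6 and 15.0 CPM in oxPAPC replicates (log2 fold change -0.23, edgeR adjusted p = 0.594). So the neighbouring beta chain genes H2-Eb1 and H2-Eb2 had log2 fold changes of -0.23 and -2.34, a difference that was not tested. H2-DMb1 and H2-DMb2, the beta chain genes of H2-DM, ranged from 1.42 to 2.16 and from 3.85 to 4.46 CPM in control libraries and from 1.27 to 1.79 and from 4.25 to 5.22 CPM in oxPAPC libraries, and had log2 fold changes of -0.24 and 0.22. H2-DMb1 shared 15.8% of its 75-base windows with H2-DMb2. Per kilobase of exon, Cd74 at 33.5 CPM, H2-DMa at 16.4 CPM and H2-Eb1 at 14.6 CPM were the highest class II genes in control libraries, and H2-Ab1 and H2-Aa stood at 2.63 and 1.15 CPM.

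The H2-Eb2 and H2-Aa windows are shown because these class II genes were called in opposite directions. The H2-Eb2 window is chr17:34325425-34325724 on the plus strand and the H2-Aa window chr17:34287774-34288073 on the minus strand of GRCm38.p6. Capitals mark the X1 box core and the Y box core in H2-Eb2, and the kappa B and Y box letters in H2-Aa.
H2-Eb2: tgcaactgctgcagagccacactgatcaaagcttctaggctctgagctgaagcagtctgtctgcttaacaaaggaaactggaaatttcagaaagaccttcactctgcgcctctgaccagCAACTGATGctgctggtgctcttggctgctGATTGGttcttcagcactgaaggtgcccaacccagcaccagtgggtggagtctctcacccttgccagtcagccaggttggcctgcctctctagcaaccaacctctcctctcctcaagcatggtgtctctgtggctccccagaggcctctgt
H2-Aa: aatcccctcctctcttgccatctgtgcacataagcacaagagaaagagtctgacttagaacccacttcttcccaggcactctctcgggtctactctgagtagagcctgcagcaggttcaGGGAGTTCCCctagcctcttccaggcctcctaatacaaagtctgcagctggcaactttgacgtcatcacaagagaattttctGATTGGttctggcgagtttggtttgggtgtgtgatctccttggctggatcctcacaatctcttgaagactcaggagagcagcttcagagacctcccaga

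The X1 box letters were in the windows of H2-Eb1 and H2-Eb2, 2 of the 8 class II genes with a window, and in 0.566% of all windows. In both the match was CAACTGATG, upstream of a Y box match. H2-Eb2 was called lower and H2-Eb1 was not called. Variants of the X1 box letters were not searched, so the other class II windows are not shown to lack the box.

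Summed over the H2- genes of each class, class I was higher relative to class II in every oxPAPC library than in any control library. The 10 class I heavy chain genes summed to 1747 ± 312 in control and 2341 ± 322 in oxPAPC libraries (SD, n = 4 each), in CPM, and the 9 class II genes to 127 ± 33.0 in control and 108 ± 20.7 in oxPAPC libraries (SD, n = 4 each). Within a library, the class I sum was 13.3, 12.2, 15.5 and 15.2 times the class II sum in control replicates 1 to 4, and 20.6, 18.1, 21.7 and 27.9 times in oxPAPC replicates 1 to 4. The groups did not overlap, and oxPAPC replicate 4, where 7 of the 10 class II genes had their lowest oxPAPC value, was highest. No p is given for these sums, since they are scores over the chosen genes. H2-K1 and H2-D1 make up most of the class I sum, and H2-DMa and H2-Eb1 most of the class II sum. Of the 9 class II log2 fold changes, 3 were positive and 6 negative. H2-Aa and H2-Ab1, the chains of I-A, add little to the sum and went against it, with 0.91 and 0.74. H2-K1 and H2-D1 had 0.45 and 0.36. The ratio of sums therefore does not describe I-A. Between the invariant partners, B2m and Cd74, the values overlapped. The log2 ratio of B2m to Cd74 counts was 2.20, 1.49, 3.24 and 2.05 in control replicates 1 to 4 and 1.81, 1.93, 2.21 and 3.06 in oxPAPC replicates 1 to 4. The difference was 0.0088 (two-sided exact permutation p = 0.971, also after adjustment over 5 ratios).

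**Figure D3:**
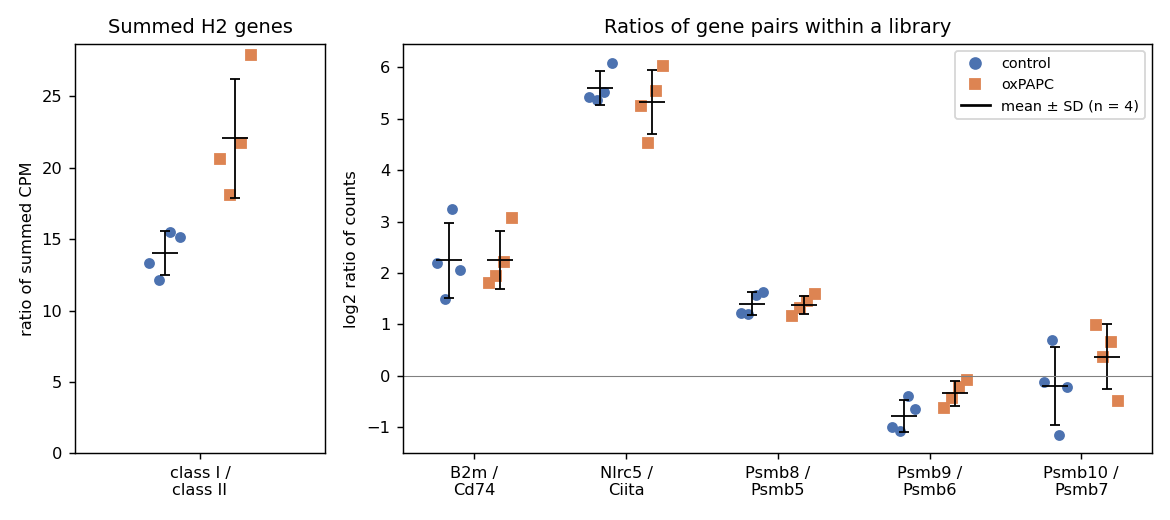
Left, the sum of class I over the sum of class II H2- genes (CPM) in each library, and right, log2 ratios of counts for 5 gene pairs, with circles for control and squares for oxPAPC libraries and bars for mean ± SD of 4. The class I over class II ratio runs from 12.2 to 15.5 in control and from 18.1 to 27.9 in oxPAPC libraries, while all 5 gene pairs overlap between groups.

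Markers of other cell types were read beside the class II genes. Of all genes tested, 6.75% were called higher and 6.52% lower. Of 14 B cell genes all were in the table, 13 were tested, and 6 rose and none fell. Their sum ranged from 74.6 to 95.2 CPM in control and from 80.5 to 124 CPM in oxPAPC libraries, most of it from Ighm. Pax5 had mean levels of 0.714 and 3.26 CPM, control first, whereas Cd79a had 4.03 and 4.23 CPM and was not called. Of 10 dendritic cell genes 6 were tested, and Flt3 and Fscn1 rose, with sums of 410 to 503 CPM in control and 347 to 497 CPM in oxPAPC libraries, most of it from Ccr7. Clec9a, Siglech and Cd209a were not analysed here. Of 11 macrophage or monocyte genes 4 were tested and Mpeg1 rose, with sums of 3.77 to 4.8 CPM in control and 9.09 to 11.3 CPM in oxPAPC libraries, and Fcgr1, Itgam, Cd14, Ly6c2, C1qa and Ms4a7 were not analysed here. Of 5 plasma cell genes 4 were tested and Ighg1 rose, from a mean of 0.493 to 2.45 CPM. The sums were 144 to 209 CPM in control and 184 to 246 CPM in oxPAPC libraries, most of it from Xbp1. Sdc1, Prdm1 and Xbp1 had log2 fold changes of -1.04, 0.87 and 0.20 and were not called. Cd8a, of 2 CD8 T cell genes, and Klrk1, of 4 natural killer genes with 2 tested, also rose. The sums of these 2 lists were 6.72 to 8.9 CPM and 0.598 to 1.81 CPM in control libraries. In oxPAPC libraries they were 10.9 to 18.7 CPM and 2.84 to 4.17 CPM. Cd8b1 and Tyrobp, the other genes tested of these lists, had log2 fold changes of 0.09 and 0.17 and were not called (edgeR adjusted p of 0.84 and 0.867). Of 6 epithelial, endothelial or fibroblast genes 2 were tested and none was called. No gene of these lists was called lower. Cd79b and Sdc1 were nonetheless lower in every oxPAPC library than in any control library. Their log2 fold changes were -0.58 and -1.04 (edgeR adjusted p of 0.0983 and 0.0531). The part of these cells in the values of Ciita and the class II genes was not tested.

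In the genomic order of the MHC, class II genes with opposite signs stood side by side. H2-Eb2 at chr17:34325665-34341412 follows H2-Eb1, H2-Aa and H2-Ab1 on chromosome 17, and the log2 fold changes from H2-Ob through H2-Ab1, H2-Aa and H2-Eb1 to H2-Eb2 were -0.77, 0.74, 0.91, -0.23 and -2.34. Between H2-DMb1 and H2-Ob lie Psmb9, Tap1, Psmb8 and Tap2, all with positive values, of which Psmb9 was called.

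**Figure D4:**
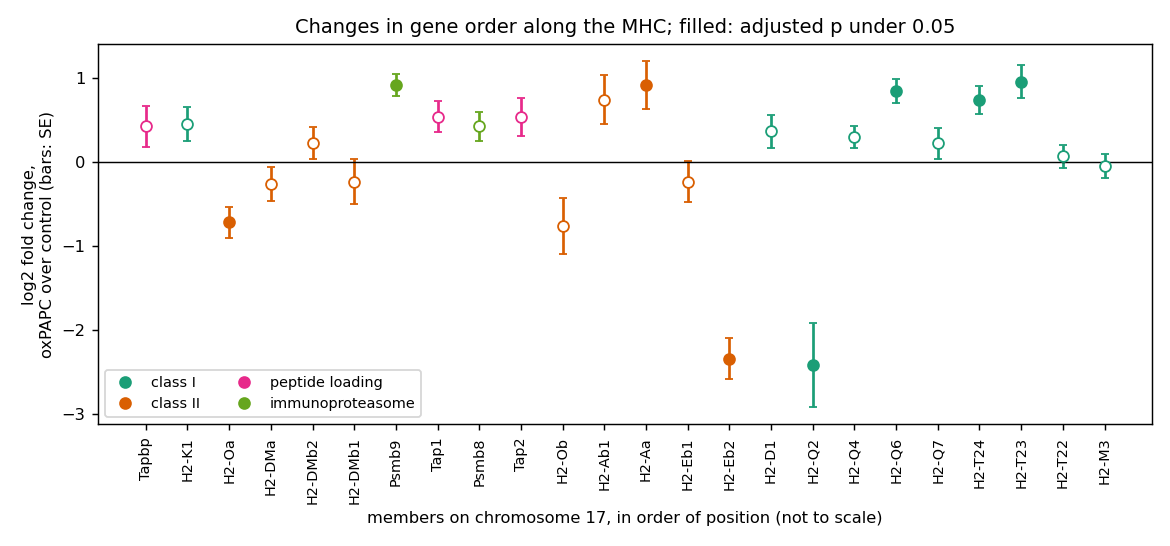
Log2 fold change of oxPAPC over control with SE bars (y axis) for the 24 members on chromosome 17, in order of position and not to scale (x axis), coloured by role and filled where the edgeR adjusted p is under 0.05. H2-Eb2 and H2-Q2 lie below -2, while the cluster Psmb9, Tap1, Psmb8 and Tap2 lies between 0.43 and 0.92.

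Of the 5 genes of the immunoproteasome and its activator, Psmb9, Psmb10 and Psme2 rose, and Psmb8 and Psme1 were not called. Psmb9 encodes LMP2, the subunit that replaces PSMB6. In control replicates 1 to 4 it had 91.2, 73.6, 79.8 and 86.1 CPM, and in oxPAPC replicates 1 to 4 it had 149.6, 148, 159 and 167 CPM. Both groups were narrow and did not overlap. Psmb9 rose 1.89-fold, a log2 fold change of 0.92 with an SE of 0.14 (adjusted p = 0.000659, edgeR). Psmb10, which encodes MECL-1, the subunit that replaces PSMB7, had 40.8, 49.2, 24.8 and 38.3 CPM in control and 94.7, 69.7, 103 and 58.2 CPM in oxPAPC replicates. Its libraries spread more within each group but did not overlap. Its log2 fold change was 1.09 with an SE of 0.22 (adjusted p = 0.00489, edgeR). Psmb8, which encodes LMP7, the subunit that replaces PSMB5, had 195, 200.3, 136 and 202 CPM in control and 266, 213, 283 and 223 CPM in oxPAPC replicates. It had no overlap and a log2 fold change of 0.43 ± 0.17, and was not called in any of the 16 fits (edgeR adjusted p = 0.123).

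Psme1 and Psme2 encode the subunits of PA28, a ring that opens the proteasome. Psme2 had 440.3, 315, 308 and 335 CPM in control and 602, 602, 481 and 586 CPM in oxPAPC replicates, without overlap. The log2 fold change was 0.70 with an SE of 0.18 (adjusted p = 0.0177, edgeR). The call was lost without control replicate 2 or 4 (adjusted p of 0.0693 and 0.053) and without oxPAPC replicate 1 or 4 (0.052 and 0.0503). It shared 22.9% of its 75-base windows with Psme2b, so its counts are less certain. Psme1 had 172, 172, 159 and 201 CPM in control and 201, 182, 252 and 250.3 CPM in oxPAPC replicates, with overlap and a log2 fold change of 0.33 (edgeR adjusted p = 0.198).

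Of 14 genes of the constitutive proteasome and its regulators 3 rose and none fell, where 6.75% of all genes tested were called higher. Those that rose were Pomp, Psma7 and Psme3, with log2 fold changes of 0.55, 0.59 and 0.69. The median of the 14 was 0.45, and Psmb1 and Psme4 alone had negative values, -0.10 and -0.16. The constitutive counterparts Psmb5, Psmb6 and Psmb7 had log2 fold changes of 0.44, 0.46 and 0.52 and were not called (edgeR adjusted p of 0.187, 0.11 and 0.0996). The log2 ratio of Psmb9 to Psmb6 counts was -0.78 ± 0.32 in control and -0.34 ± 0.25 in oxPAPC libraries (SD, n = 4 each), a difference of 0.44 (two-sided exact permutation p = 0.114, adjusted 0.571). That of Psmb10 to Psmb7 was -0.20 ± 0.76 in control and 0.38 ± 0.63 in oxPAPC libraries (SD, n = 4 each), a difference of 0.57 (two-sided exact permutation p = 0.314, adjusted 0.786). This difference was 0.26 without control replicate 3, 0.37 without oxPAPC replicate 1, 0.86 without oxPAPC replicate 4 and 0.87 without control replicate 2. That of Psmb8 to Psmb5 was 1.40 ± 0.23 in control and 1.38 ± 0.18 in oxPAPC libraries (SD, n = 4 each), a difference of -0.023 (two-sided exact permutation p = 0.8, adjusted 0.971). None of the 3 ratios passed the test, and the groups overlapped in each. After adjustment over 5 ratios, 1 ratio alone at the smallest possible p of 0.0286 would not fall under 0.05. The test therefore cannot show that a ratio was unchanged.

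All 5 genes of peptide loading and trimming had higher means in oxPAPC libraries, and none was called. Tap1, a subunit of the TAP transporter, had 173, 208, 142 and 216 CPM in control and 248, 241, 342 and 244 CPM in oxPAPC replicates, without overlap (log2 fold change 0.54 ± 0.18, edgeR adjusted p = 0.0652). It was called with DESeq2 (adjusted p = 0.0319), with library size scaling (0.0404), with an offset for GC content and length (0.00469) and in the authors' deposited table (0.0307). Tap2, the other subunit, had 64.9, 93.0, 42.3 and 80.6 CPM in control and 100.4, 85.8, 137 and 84.0 CPM in oxPAPC replicates (log2 fold change 0.54, edgeR adjusted p = 0.138), and was called with library size scaling (0.0463) and with the offset (0.0175). Tapbp, which encodes tapasin, had 160.2, 263, 116 and 207 CPM in control and 264, 219.7, 334 and 182 CPM in oxPAPC replicates (log2 fold change 0.42, edgeR adjusted p = 0.29). The groups of Tap2 and Tapbp overlapped. Tapbpl encodes TAPBPR, a peptide editor related to tapasin, and had 30.4, 28.2, 26.4 and 31.9 CPM in control and 35.8, 33.9, 48.9 and 40.6 CPM in oxPAPC replicates, without overlap (log2 fold change 0.45 ± 0.14, edgeR adjusted p = 0.0553). It was called with DESeq2 (0.047), with the offset (0.0231), without oxPAPC replicate 2 (0.0432) and in the authors' deposited table (0.0454). Erap1, which trims peptides in the endoplasmic reticulum, had 24.3, 24.4, 36.0 and 27.0 CPM in control and 32.7, 29.4, 44.5 and 36.7 CPM in oxPAPC replicates, with overlap (log2 fold change 0.36, edgeR adjusted p = 0.185), and was called without control replicate 3 (0.0495).

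Psmb9 and Tap1 are read from opposite strands with start sites 226 bases apart, so that their windows share 275 bases, and their annotated genes overlap. The Psmb9 window, chr17:34187281-34187580 on the minus strand of GRCm38.p6, is shown because it covers the region between both genes, with the Y box letters in capitals.
Psmb9: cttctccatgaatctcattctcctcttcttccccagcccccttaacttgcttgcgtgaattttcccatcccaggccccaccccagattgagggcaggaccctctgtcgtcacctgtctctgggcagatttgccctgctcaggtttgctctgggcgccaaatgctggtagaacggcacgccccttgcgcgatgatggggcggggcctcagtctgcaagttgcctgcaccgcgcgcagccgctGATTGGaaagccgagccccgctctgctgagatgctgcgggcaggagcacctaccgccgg

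Psmb9 was called higher and Tap1 was not, with log2 fold changes of 0.92 and 0.54. The difference between them was not tested.

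Genes around this route were read from lists. Over all genes tested 6.75% were called higher and 6.52% lower, and a single call among 11 genes is near these shares. Of 10 chaperones and helpers of peptide loading 4 rose, Calr, Pdia6, Pdia3 and Bcap31, and none fell. Calr encodes the chaperone calreticulin, and Pdia6 and Pdia3 encode disulfide isomerases. Their log2 fold changes were 1.18, 0.65 and 0.48. The median of the 10 was 0.13. Lnpep was not called but was lower in every oxPAPC library than in any control library (log2 fold change -0.44, edgeR adjusted p = 0.0623). Of 8 tested cytosolic peptidases Thop1 and Lap3 rose, with 0.81 and 0.52, and Prep had 0.48 (edgeR adjusted p = 0.113). Of 11 tested genes of class II processing and turnover none rose and Ctsl, which encodes cathepsin L, fell by 0.78 on the log2 scale, while Ctsh and Ctsd had 0.96 and -0.57 (edgeR adjusted p of 0.0576 and 0.061). Of 11 genes for factors of MHC promoters Nfyc, a subunit of NF-Y, rose by 0.50, and Rfxank and Creb1 had -0.53 and 0.29 (edgeR adjusted p of 0.0575 and 0.234). Of 3 tested class I-like genes outside the H2- names, Mr1, which presents vitamin metabolites to MAIT cells, fell by 0.94 on the log2 scale with an SE of 0.16 (adjusted p = 0.00148, edgeR), from 18.1 to 9.43 CPM. Ulbp1 and Cd1d1 had -0.47 and 0.10 (edgeR adjusted p of 0.0811 and 0.861). Of 16 genes of interferon signalling 7 rose and 4 fell. Irf1, a transcription factor of class I and immunoproteasome promoters, had 56.5 ± 4.31 CPM (SD, n = 4) in the control group and 110.4 ± 13.0 CPM (SD, n = 4) in the oxPAPC group, a log2 fold change of 0.96 with an SE of 0.14 (adjusted p = 0.000539, edgeR). Ifng and Irf7 had log2 fold changes of 4.60 and 2.39. The 4 genes that fell, named after their values were seen, were Ifngr1 and Ifngr2, the chains of the interferon gamma receptor, Ifnar2, a chain of the type I interferon receptor, and Irf2. Their log2 fold changes were -0.46, -0.67, -0.62 and -0.53 (edgeR adjusted p of 0.0287, 0.0079, 0.0291 and 0.0218).

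Libraries of one group differed from each other across the set. In the control group, 23 of the 33 genes were lowest in replicate 3 and 18 were highest in replicate 2. In the oxPAPC group, 16 were highest in replicate 3 and 14 lowest in replicate 4. Without control replicate 3 the median log2 fold change of the 33 genes was 0.30, and without oxPAPC replicate 3 it was 0.31. The heat map of single libraries shows this, with control replicate 3 pale blue and oxPAPC replicate 3 red for most genes of the class I route. B2m, H2-T24, Erap1 and Ciita went against this order in the control group, with their highest value in replicate 3.

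**Figure D5:**
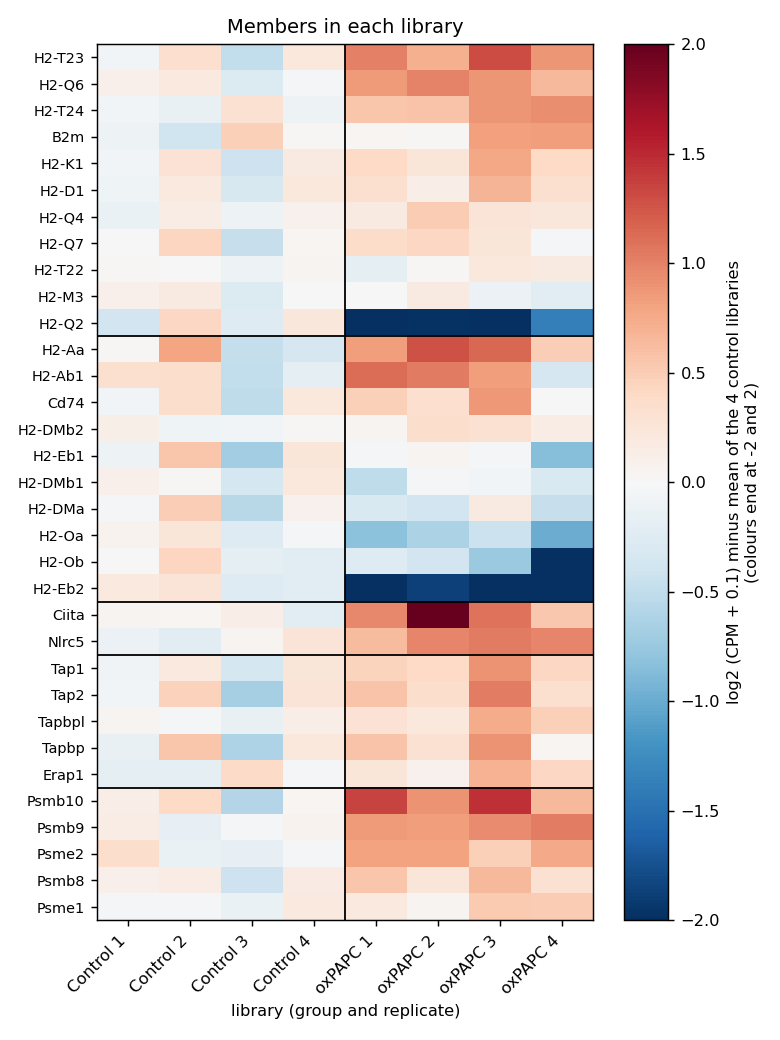
Log2 (CPM + 0.1) of each gene (rows, by role) in each library (columns) minus the mean of the 4 control libraries, with colours ending at -2 and 2. Nlrc5, Ciita, H2-T23, H2-Q6, Psmb9 and Psmb10 are red in all 4 oxPAPC libraries, and H2-Eb2 and H2-Q2 are blue in all 4.

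The authors' deposited table, from DESeq2, has 11 of the 33 genes higher and 3 lower at the same threshold. All 12 genes called here were also called there in the same direction, and the other 2 were Tap1 and Tapbpl.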

How the data were processed

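RNA-seq libraries of 4 control and 4 oxPAPC-treated samples of in vitro derived mouse Tregs were compared. RNA was column-purified and poly(A)-selected, per the labels' protocols. Build GRCm38.p6 and the tools STAR (2.7.8a), featureCounts (2.0.2) and DESeq2 (1.30.1) are listed in the submitters' processing notes. The authors deposited whole-number counts per gene and library, not normalized. The same deposited table holds their comparison, with mean signal (normalized counts), log2 fold changes, fold ratios, Wald scores and p-values, per the file headers. Each gene in the table has 5 counts or more in at least 2 libraries.

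Libraries were grouped by title. Counts were filtered with filterByExpr and TMM-scaled. Groups were compared over all 16434 genes in edgeR 4.0.16 (R 4.3.3) by its quasi-likelihood test, with Benjamini-Hochberg adjustment. The fit was tested on simulated counts. Standard errors are the log2 fold change over the square root of F. Ratios of 2 genes used log2 of counts plus 0.5 and exact permutation over libraries. Exon lengths and 75-base windows came from GENCODE M21 (GRCm38). Genes with a mean of at least 5 CPM were given in every library, and of each pathway list the 3 genes with the smallest adjusted p. Other list members are named as those that passed or as markers, and Lnpep because its groups did not overlap. Alternatives were RLE and library size scaling, no filter, DESeq2 1.42.0, limma-voom (limma 3.58.1), the replicate number as a block, other settings of the ratios and leaving out each library. A loess offset (span 0.5) for transcript GC content and length was added after the data were seen. The genes and lists were chosen with earlier results of these data known. Depth of 14017583 to 21619731 counts per library limits the genes under 2 CPM most.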

Additional observations from a re-analysis of the deposited data

Results flagged for a closer look

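Each gene and gene pair ratio was searched for a library standing apart within its group. Among 76 groups of 4 values, 4 held such a library, about the 4 that chance would give. H2-Eb1 had 15.0 CPM in oxPAPC replicate 4, against 26.6 to 28.2 CPM in the others. Psmb8 had 136 CPM in control replicate 3, against 195 to 202 CPM. Psme2 had 481 CPM in oxPAPC replicate 3, against 586 to 602 CPM, and Tap1 had 342 CPM in the same library, against 241 to 248 CPM. Without oxPAPC replicate 4, H2-Eb1 had a log2 fold change of -0.06, against -0.23 with it, and without control replicate 3, Psmb8 had 0.30, against 0.43. Without oxPAPC replicate 3 the log2 fold changes of Psme2 and Tap1 were 0.77 and 0.40, against 0.70 and 0.54 with it.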

How the results depend on the processing

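RLE scaling, no filter and limma-voom left the counts of 9 higher and 3 lower genes of the set unchanged, and DESeq2 gave 11 and 3, with an adjusted p missing for 1 gene of the table. Of the 12 called genes 9 kept their call in all 15 alternative fits, the others being H2-Aa, H2-Oa and Psme2, and 16 of the 21 other genes were never called. With scaling by library size, 2 class II genes were higher and 1 lower, 458 genes of all were lower, and H2-M3 turned to 0.0993. With the GC content and length offset, 1727 genes of all were higher. With the replicate number as a block, 708 genes of all and 1 class II gene were lower, the adjusted p of H2-Oa being 0.0554, and no other call among the 33 genes changed. Replicate numbers were not treated as pairs: deviations of same-numbered libraries had correlations of 0.32, -0.053, -0.37 and -0.035, and only 2 of 8 were closest to their own number.

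Leaving out each library in turn gave 710 to 1057 higher and 680 to 1144 lower genes of all, 7 to 9 higher and 2 to 3 lower genes of the set, and 0 to 2 higher and 1 to 2 lower class II genes. The class I counts stayed at 3 and 1. H2-M3 ranged from -0.1354 to 0.0124 and turned to 0.0106 without control replicate 2 and to 0.0124 without oxPAPC replicate 4, and Cd1d1 ranged from -0.0628 to 0.1851, at -0.0628 without control replicate 4 and at -0.0265 without oxPAPC replicate 4. The difference in the log2 ratio of B2m to Cd74 was -0.0542 with medians over libraries and ranged from -0.2606 to 0.3394 with a library left out, turning negative without control replicate 1 (-0.0065), 2 (-0.2429) or 4 (-0.0550) or oxPAPC replicate 4 (-0.2606). That of Nlrc5 to Ciita ranged from -0.4928 to 0.0030, positive without oxPAPC replicate 2. That of Psmb8 to Psmb5 ranged from -0.0923 to 0.0522, and was 0.0323 without control replicate 3, 0.0522 without control replicate 4 and 0.0466 without oxPAPC replicate 1. That of Psmb10 to Psmb7 ranged from 0.2553 to 0.8704 and that of Psmb9 to Psmb6 from 0.3407 to 0.5672. The causes were not tested. These ratios were not tested in pairs. Low depth limits H2-Q2, Ciita and H2-DMb1 most.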
